A study of Caenorhabditis elegans with 4 samples.

Results

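The nuclear hormone receptor (*nhr*) genes of *C. elegans* were described in GFP-positive neurons sorted from wild-type animals that carry the *Pacr-2*::*gfp* reporter. The members are the genes whose symbol is *nhr* followed by a number, and they were chosen by name, not by level. They number 277 of the 41560 gene symbols in the deposited tables. For 2 members with several rows, *nhr-244* and *nhr-259*, the row with the highest mean was taken. The Ensembl annotation lists 266 members as protein-coding genes, and the other 11 had no entry in it, 9 of which RefSeq lists as pseudogenes. None of these 11 was over 10 FPKM in both libraries, and the highest mean among them was 7.87 FPKM, for *nhr-284*.

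Nuclear hormone receptors are transcription factors with a zinc finger DNA-binding domain and, in most cases, a ligand-binding domain that can hold a small lipophilic molecule such as a steroid or a fatty acid. Nematodes carry far more of these genes than insects or vertebrates do, most of them from an expansion of HNF4-like receptors, and many lie in arrays on chromosome V. A minority have clear counterparts in other animals, and for most of the rest neither a ligand nor a function is known. In neurons, the best studied receptors of this class carry other names, among them *unc-55*, *fax-1* and *odr-7*, which act in the identity and wiring of particular neurons.

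The study sorted GFP-positive cells from dissociated young adults grown for 72 h at 20 °C after synchronization. Both libraries analysed here came from strain CZ631, which carries the integrated reporter *juIs14[Pacr-2::gfp]* and no *acr-2* mutation. The 2 samples of *acr-2(gf)*, from strain CZ5808 with the same reporter and *acr-2(n2420gf)*, were not analysed here, so there is 1 condition and no test between conditions. The reporter is on in the ventral cord cholinergic motoneurons of the A and B classes and also in unidentified neurons of the head and tail, and each library pools cells from many animals.

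Levels are FPKM, which divides the fragments of a gene by its transcript length and by the mapped fragments of the library, so they can be compared between genes of different length. Errors are the SD over the 2 libraries (n = 2), which measures only the spread between them. Genes over 10 FPKM in both libraries are called expressed. The pan-neuronal markers passed in 12 of 12 cases with a median of 801 FPKM, and the core cholinergic markers in 4 of 4 with a median of 214 FPKM. Of the 6 cholinergic motoneuron markers 5 passed, and *acr-5* did not. Markers of other tissues were also present. The number over the limit was 4 of 6 for GABAergic neurons, 5 of 7 for body-wall muscle, 6 of 8 for intestine, 3 of 7 for hypodermis, 7 of 7 for germline, 1 of 4 for pharyngeal muscle and 0 of 5 for glia. The body-wall muscle median, at 236 FPKM, was above that of the core cholinergic markers. Medians were 110 FPKM for intestine, 85.1 FPKM for germline, 27.3 FPKM for GABAergic neurons and 18.2 FPKM for hypodermis. For pharyngeal muscle and glia they were 3.33 and 0.260 FPKM. The intestinal markers summed to 3268 FPKM in library 1 and 1710 FPKM in library 2, with *elt-2*, the defining transcription factor of the intestine, at 1.68 and 5.36 FPKM. Library 1 listed 12977 gene symbols above 0 and library 2 listed 16582. In sorted cells, fewer cells of a type and less RNA per cell cannot be told apart, and the part of other tissues in the levels of the *nhr* genes was not tested.

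Most *nhr* genes were at low levels in these sorted cells, and a small set was well above the limit. Of the 277 members, 31 (11.2%) were over 10 FPKM in both libraries, against 16.5% of all gene symbols and 34.1% of the 19214 annotated protein-coding genes. Among the 266 protein-coding members the share was 11.7%. With each library scaled to the same sum (TPM), 17 members were over 10, a limit that equals 18.03 FPKM in library 1 and 16.4 FPKM in library 2. The median of the mean level was 1.66 FPKM for the members and 4.41 FPKM for protein-coding genes. The upper end of the family was also lower. At the 90th percentile the members stood at 14.5 FPKM and the protein-coding genes at 94.3 FPKM. At the low end they were close to each other, since 57 members (20.6%) were listed at 0 in both libraries, against 19.4% of protein-coding genes. Between these ends, 68 members had a mean above 0 and up to 1 FPKM, 110 over 1 and up to 10 FPKM, 34 over 10 and up to 50 FPKM, 5 over 50 and up to 100 FPKM, and 3 over 100 FPKM.

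**Figure D1:**
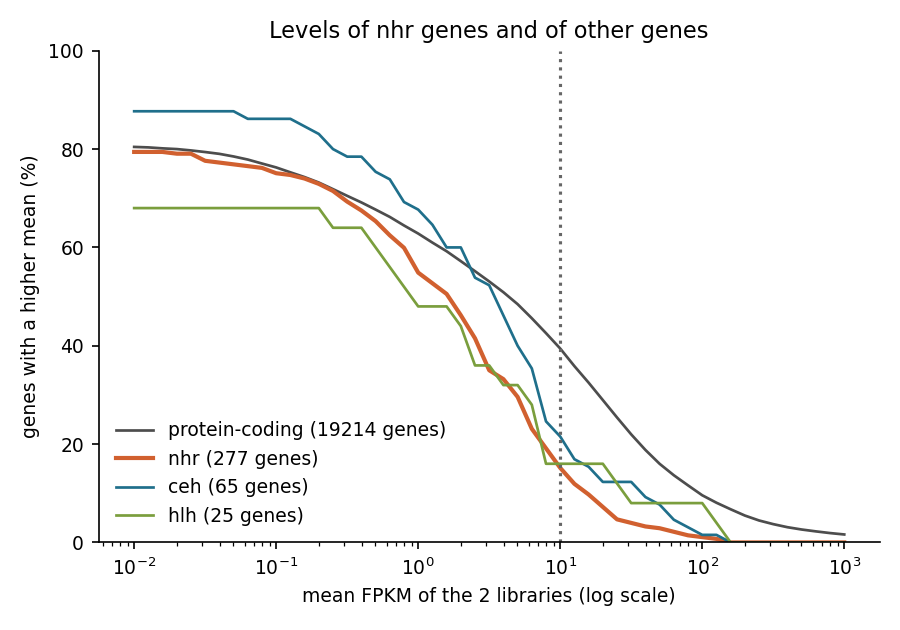
Share of genes (y axis, %) whose mean FPKM over the 2 libraries is above the value on the x axis (log scale), for 277 *nhr* genes, 65 *ceh* genes, 25 *hlh* genes and 19214 protein-coding genes, with a dotted line at 10 FPKM. The *nhr* curve runs with that of the protein-coding genes at the lowest levels and lies below it from about 1 FPKM upward.

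At the limit of 10 FPKM the low share was not seen in the *nhr* genes alone. Of the *ceh* homeobox genes, which specify cell identities, 10 of 65 (15.4%) were expressed with a median of 3.49 FPKM. Of the *hlh* basic helix-loop-helix genes, 3 of 25 (12%) were expressed with a median of 0.880 FPKM. At a limit of 1 FPKM the families differed. Over it in both libraries were 53.8% of *ceh* genes, close to the 55.1% of protein-coding genes. For the *nhr* and *hlh* genes the shares were 44.4% and 36%. The highest gene of each family had a similar mean, at 157 FPKM for *nhr-1*, 128 FPKM for *ceh-20* and 139 FPKM for *hlh-30*. These are descriptions of 3 families in the same 2 libraries, and no test of a difference between them was made.

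Summed over all members, the *nhr* genes held 1819 FPKM in library 1 and 1885 FPKM in library 2, or 0.101% and 0.115% of the FPKM of all symbols. The 31 expressed members made up 63.4% of the family's sum in library 1 and 64.5% in library 2. The 4 highest members, *nhr-1*, *nhr-40*, *nhr-49* and *nhr-88*, alone made up 25.3% and 27.2%.

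The highest member was *nhr-1*, at 158 FPKM in library 1 and 156 FPKM in library 2 (mean 157 ± 0.956 FPKM, SD, n = 2). It lies on chromosome X (WBcel235 17514063 to 17528197) and stood at percentile 93.2 of the protein-coding genes. *nhr-40*, which is needed for normal muscle and movement, was at 102 and 150 FPKM (mean 126 ± 33.7 FPKM). *nhr-49*, an HNF4-related receptor that drives fasting and fatty acid desaturation genes, was at 114.3 and 109.2 FPKM (mean 111.7 ± 3.58 FPKM). These 3 were the members over 100 FPKM in both libraries, and the ratio between the libraries was 1.01 for *nhr-1* and 1.05 for *nhr-49*. The order of *nhr-40* and *nhr-49* was not the same in the libraries, since *nhr-49* was the higher in library 1 and *nhr-40* in library 2.

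*nhr-88* followed at 85.3 and 97.5 FPKM (mean 91.4 ± 8.59 FPKM). *nhr-27* was at 67.6 and 62.2 FPKM (mean 64.9 ± 3.85 FPKM), but its locus spans 10 other detected loci, and one of them, F16H9.6, was at 192 FPKM, so reads of one may be counted to the other. *nhr-46* was at 73.6 and 52.8 FPKM (mean 63.2 ± 14.7 FPKM). The next members were *nhr-97* at 45.2 and 64.5 FPKM (mean 54.8 ± 13.6 FPKM) and *nhr-71* at 57.01 and 47.5 FPKM (mean 52.2 ± 6.74 FPKM), and both overlapped with *nhr-46* in their ranges. The gap between *nhr-88* and these 4 members was larger than the spread between libraries, as the lowest value of *nhr-88* was above the highest of the others.

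**Figure D2:**
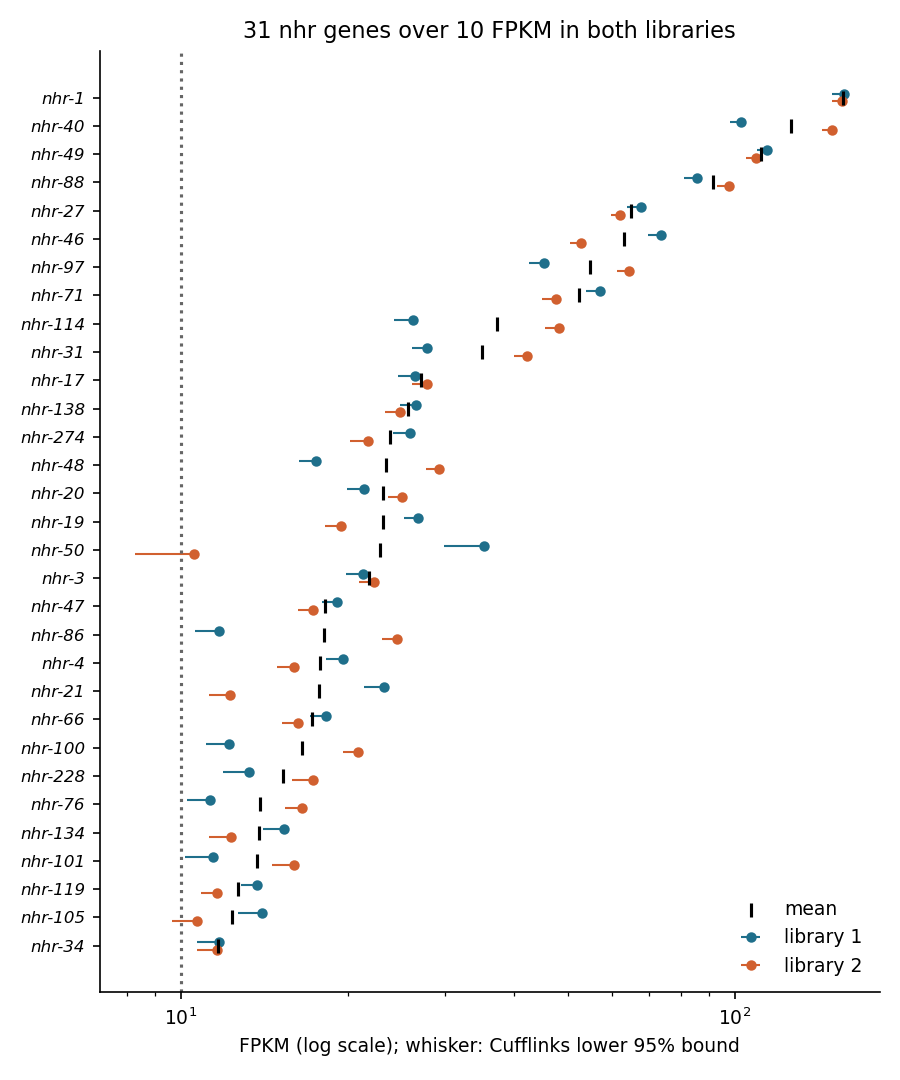
FPKM (x axis, log scale) of the 31 expressed *nhr* genes, with a point for each wild-type library, a whisker down to the lower bound of the Cufflinks 95% interval and a black bar at the mean. The 4 highest genes stand at 85.3 FPKM or more in both libraries, and *nhr-50* has the widest separation of its points, at 35.2 and 10.6 FPKM.

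Below 50 FPKM the levels formed a continuous series. The vitamin B12-related receptor *nhr-114* was at 26.3 and 48.1 FPKM (mean 37.2 ± 15.4 FPKM). *nhr-31*, which acts in growth of the excretory cell tubule, was at 27.8 and 42.2 FPKM (mean 35.0 ± 10.2 FPKM). The locus of *nhr-114* overlaps that of Y45G5AM.9, which was at 34.8 FPKM, so its level is uncertain. A group of 6 members between *nhr-17* and *nhr-3* in the order of means lay close together. *nhr-17* was at 26.4 and 27.8 FPKM, *nhr-138* at 26.6 and 24.8 FPKM and *nhr-274* at 26.0 and 21.8 FPKM. *nhr-20* was at 21.4 and 25.1 FPKM, *nhr-19* at 26.9 and 19.5 FPKM and *nhr-3* at 21.3 and 22.3 FPKM. All 6 ranges fell between 19.5 and 27.8 FPKM, so their order by mean is not larger than the spread between libraries. In the same part of the order *nhr-48* and *nhr-50*, given elsewhere, had wider ranges. The remaining expressed members, from *nhr-47* to *nhr-34*, had means between 11.7 and 18.2 FPKM. Among them *nhr-47* was at 19.2 and 17.3 FPKM, *nhr-4* at 19.6 and 16.03 FPKM, *nhr-228* at 13.3 and 17.3 FPKM, *nhr-119* at 13.7 and 11.6 FPKM and *nhr-34* at 11.7 and 11.6 FPKM. These 5 were within 1.5-fold between the libraries.

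Conserved members, which have counterparts in insects and mammals, were read from a list of 10. It leaves out nuclear receptors with other names, such as *daf-12* and *unc-55*, which are given below. Of these only *nhr-48*, a receptor related to DAF-12, was over 10 FPKM in both libraries, at 17.6 and 29.3 FPKM (mean 23.4 ± 8.30 FPKM). *nhr-85*, of the E75 and Rev-erb type that acts in developmental timing, was at 40.001 FPKM in library 1 and 7.60 FPKM in library 2. *nhr-6*, the NR4A-type receptor of the spermatheca, was at 25.7 and 9.16 FPKM. Both therefore passed the limit in library 1 alone. Of the receptors of molting, *nhr-23* was at 3.50 and 7.42 FPKM and *nhr-25* at 0.920 and 1.49 FPKM. *nhr-41* (DHR78 type, 5.91 and 5.59 FPKM) and *nhr-91* (GCNF type, 5.09 and 5.34 FPKM) were nearly equal in the libraries. At the bottom of the list were *nhr-8* at 2.34 and 1.27 FPKM, *nhr-111* at 1.10 and 0.469 FPKM, and the tailless-type *nhr-67*, listed at 0 in library 1 and at 0.896 FPKM in library 2. The count of 1 in 10 is close to the 11.2% of all members and below the 34.1% of protein-coding genes. The median of the list was 5.34 FPKM, against 1.66 FPKM for all members and 4.41 FPKM for protein-coding genes.

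The receptors of fat and propionate metabolism form another list of 10. Of these 4 were expressed (*nhr-49*, *nhr-114*, *nhr-66* and *nhr-76*), all 10 were over 1 FPKM in both libraries, and the median was 12.9 FPKM. The count of 4 in 10 is above the 11.2% of all members and near the 34.1% of protein-coding genes. *nhr-66*, a partner of *nhr-49* in lipid gene control, was at 18.3 and 16.3 FPKM (mean 17.3 ± 1.43 FPKM). *nhr-76*, which acts in the fat loss driven by serotonin, was at 11.3 and 16.5 FPKM (mean 13.9 ± 3.70 FPKM). The *nhr-49* partners *nhr-13* and *nhr-80* were under the limit in both libraries. *nhr-13* was at 7.42 and 3.06 FPKM, and *nhr-80*, needed for the long life of animals without a germline, was at 7.36 and 3.95 FPKM. Among the rest of the list, *nhr-62* was at 3.31 and 6.62 FPKM. *nhr-64* was at 11.2 and 9.12 FPKM, over the limit in library 1 alone.

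The pair of receptors that switch on the propionate shunt, *nhr-10* and *nhr-68*, differed in how alike their libraries were. *nhr-10* was just short of the limit, at 9.89 and 13.95 FPKM. *nhr-68* was at 5.58 FPKM in library 1 and 90.5 FPKM in library 2, a ratio of 16.2, with lower bounds of 4.71 and 81.4 FPKM. It had rank 9 among all members by its mean of 48.1 ± 60.1 FPKM, and that rank rests on library 2. The genes of the shunt, a pathway that breaks down propionate when vitamin B12 is low, were then looked up, and this list was chosen after the values of *nhr-68* were seen. All 5 were expressed. *acdh-1*, the first enzyme, was at 351 and 941 FPKM, and *ech-6* was at 329 and 613 FPKM. *hach-1* was at 125 and 261 FPKM, *hphd-1* at 177 and 360 FPKM, and *alh-8*, the last enzyme, at 717 and 659 FPKM. Thus 4 of the 5 were higher in library 2, by smaller ratios than *nhr-68*. The median ratio of all expressed genes also leaned to library 2 (log2 0.12), and the share of them higher there was not computed. Most of the intestinal markers were higher in library 1, and so was their sum, with *mtl-2* at 1767 and 1004 FPKM and *vit-2* at 835 and 320 FPKM. The markers *vit-5*, *cpr-6*, *vha-6* and *ges-1* were also higher in library 1, and *spl-1* was nearly equal in the libraries. Only the intestinal factor *elt-2* was clearly higher in library 2, at 1.68 and 5.36 FPKM. How much intestine each library held was not tested. The cause of the difference of *nhr-68* and these 4 genes between the libraries was not tested.

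Among the receptors of stress and defence, 1 of 4 was expressed, against 11.2% of all members and 34.1% of protein-coding genes. *nhr-86*, which acts in intestinal immune responses, was at 11.7 and 24.6 FPKM (mean 18.2 ± 9.11 FPKM). *nhr-14*, an HNF4-like receptor of iron uptake and immunity, was at 4.60 and 14.6 FPKM. *nhr-57*, which is induced by hypoxia, was at 2.15 and 3.28 FPKM, and *nhr-176*, which acts in the response to xenobiotics, was at 2.01 and 1.73 FPKM. The early embryonic *nhr-2* was at 0.551 and 0.791 FPKM, so that of the 3 other studied members *nhr-40* and *nhr-31* were expressed and *nhr-2* was not.

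Genes that work with nuclear receptors were read from fixed lists. Of 5 receptors with other names, 2 were expressed, against 34.1% of protein-coding genes. *daf-12*, the steroid receptor of the dauer decision, was at 14.2 and 33.6 FPKM. *unc-55*, which acts in the GABAergic VD motoneurons, was at 21.4 and 41.3 FPKM. The GABAergic markers, a list of 6 that includes *unc-55*, summed to 291 FPKM in library 1 and 700 FPKM in library 2, and their part in the level of *unc-55* was not tested. *sex-1* was at 6.25 and 3.84 FPKM. *fax-1*, at 0.0288 and 0.142 FPKM, and *odr-7*, listed at 0 and at 0.156 FPKM, were near the bottom. Both are known from other neurons than the ventral cord motoneurons.

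Of 6 genes of the metabolism of dafachronic acid, the ligand of DAF-12, 1 was expressed, against 34.1% of protein-coding genes. That gene, *emb-8*, encodes the general partner of P450 enzymes and was at 20.0 and 24.8 FPKM. The P450 itself, *daf-9*, was at 0.740 and 0.280 FPKM. *daf-36* was listed at 0 and at 2.98 FPKM, *dhs-16* at 0 and 0.143 FPKM, *strm-1* at 0 and 1.71 FPKM, and *hsd-1* at 0 in both. *daf-12* was thus present over the limit while the other 5 genes of its ligand's metabolism reached at most 2.98 FPKM.

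Of 5 coregulators, 3 were expressed. *mdt-15*, the Mediator subunit that binds NHR-49, was at 87.8 and 72.7 FPKM (mean 80.3 ± 10.6 FPKM). The DAF-12 corepressor *din-1* was at 75.7 and 73.4 FPKM, and the acetyltransferase *cbp-1* was at 18.9 and 36.4 FPKM. *gei-8*, of the NCoR type, was at 4.97 and 10.6 FPKM, and *dpy-22*, the Mediator subunit MED12, at 2.24 and 6.98 FPKM. Of 6 known target genes of NHR-49, 3 were expressed. The acyl-CoA synthetase *acs-2* was at 503 and 451 FPKM, the desaturase *fat-6* at 179 and 134 FPKM and the glyoxylate cycle gene *icl-1* at 263 and 97.5 FPKM. *fat-7* was at 8.23 and 15.3 FPKM and *fat-5* at 3.07 and 9.81 FPKM. The stress-induced *fmo-2* was at 11.7 and 0.380 FPKM. *nhr-49* and *mdt-15* were expressed, while the targets *fat-5*, *fat-7* and *fmo-2* were not over the limit in both libraries. Of all protein-coding genes 34.1% were expressed. Whether NHR-49 acts on its targets in these cells was not tested. The intestinal markers were detected too, and their part in the levels of these genes was not tested.

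**Figure D3:**
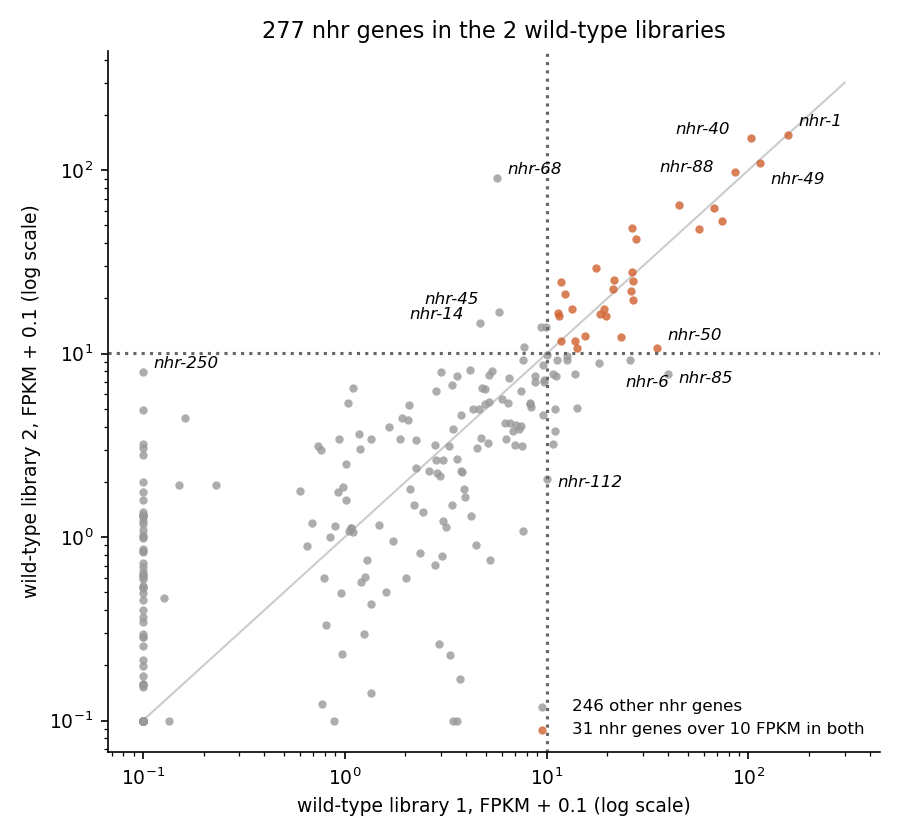
FPKM of the 277 *nhr* genes in library 1 (x axis) and library 2 (y axis), both with 0.1 added and on log scales, with dotted lines at 10 FPKM and a diagonal of equal values. The 31 genes over 10 FPKM in both (orange) lie near the diagonal, *nhr-68* lies far above it, and the 48 genes listed at 0 in library 1 alone form the column at the left edge above the corner.

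The members were then compared between the libraries. Pearson's r between the libraries, taken on log2(FPKM + 1), was 0.839 over the 220 members not at 0 in both, which is a description across genes that share 2 libraries. Of the 31 expressed members, 23 were within 1.5-fold once the median ratio of all expressed genes (log2 0.12 toward library 2) was taken out. The limit in both libraries itself leaves out members that differ, so this count does not show that high members were alike. Among the 42 members with a mean over 10 FPKM, a limit chosen after seeing the data, 7 (16.7%) were more than 2-fold apart against 22.4% of all symbols over that mean, and 5 of them (*nhr-68*, *nhr-85*, *nhr-6*, *nhr-70* and *nhr-45*) were not expressed in both. Among the expressed members, more than 2-fold higher in library 1 were 2 members, against 8.23% of all expressed genes, and more than 2-fold higher in library 2 were 0, against 5.28%. The pair comprised *nhr-50*, at 35.2 and 10.6 FPKM (centred log2 ratio −1.86), and *nhr-21*, at 23.2 and 12.3 FPKM (−1.04). Without the centring *nhr-50* and *nhr-86* were the pair past 2-fold, 1 in each direction. The median absolute centred log2 ratio was 0.39 for the expressed members and 0.41 for all expressed genes. The next largest ratios toward library 1 belonged to *nhr-46* (−0.60), *nhr-19* (−0.59) and *nhr-105* (−0.52), and those toward library 2 to *nhr-86* (0.95), *nhr-114* (0.75), *nhr-100* (0.65), *nhr-48* (0.61) and *nhr-31* (0.48).

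In one library alone, 19 members were over 10 FPKM. Library 1 held 13 of them (4.69% of members) against 3.04% of protein-coding genes, and library 2 held 6 (2.17%) against 6.21%. Those of library 1 included *nhr-85*, *nhr-6*, *nhr-70* (18.01 and 8.74 FPKM) and *nhr-182* (14.1 and 4.96 FPKM). Those of library 2 were led by *nhr-68*, *nhr-45* (5.74 and 16.7 FPKM) and *nhr-14*. At the limit itself, the nearest members inside were *nhr-50*, *nhr-105* (14.02 and 10.7 FPKM), *nhr-76* and *nhr-101* (11.4 and 16.03 FPKM), whose locus overlaps that of *pms-2* at 4.03 FPKM. The nearest outside were *nhr-10*, *nhr-96* (9.99 and 9.73 FPKM), *nhr-63* (12.6 and 9.66 FPKM) and *nhr-95* (9.29 and 13.9 FPKM). The lower bound of Cufflinks was over 10 FPKM in both libraries for 29 members, and the other 2 expressed members were *nhr-50* and *nhr-105*.

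Members with a mean over 1 and up to 10 FPKM leaned to library 1. Of the 103 such members above 0 in both libraries, 62 (60.2%) were higher in library 1, against 43.6% of the 3822 protein-coding genes of the same band, and their median log2 ratio of library 2 to library 1 was −0.27 against 0.21. Zeros were as frequent among the members as among other genes. Listed at 0 in library 1 alone were 48 members (17.3%) against 16.8% of protein-coding genes, and in library 2 alone 4 members (1.44%) against 1.23%. The 4 were *nhr-155*, *nhr-205*, *nhr-82* and *nhr-197*. The highest level of a member at 0 in the other library was 7.79 FPKM, for *nhr-250*. The summed markers of intestine and glia (43.3 and 11.8 FPKM) were also higher in library 1. So were those of pharyngeal muscle (35.1 and 22.2 FPKM). Those of body-wall muscle were nearly equal (6353 and 6151 FPKM), with *pat-10*, *myo-3* and *hlh-1* higher in library 2. Each neuronal list and hypodermis summed higher in library 2, and germline was nearly equal. These sums were not centred on the median ratio of expressed genes. The pan-neuronal sums were close, at 15368 and 16401 FPKM, with *egl-21* and *sbt-1* higher in library 1. Most of the hypodermis sum came from *col-19*, at 2214 and 2652 FPKM. Most of the glial sum came from *hlh-17*, at 33.4 and 9.49 FPKM, with *mir-228* listed at 0 in both. The part of any tissue in this lean was not tested.

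**Figure D4:**
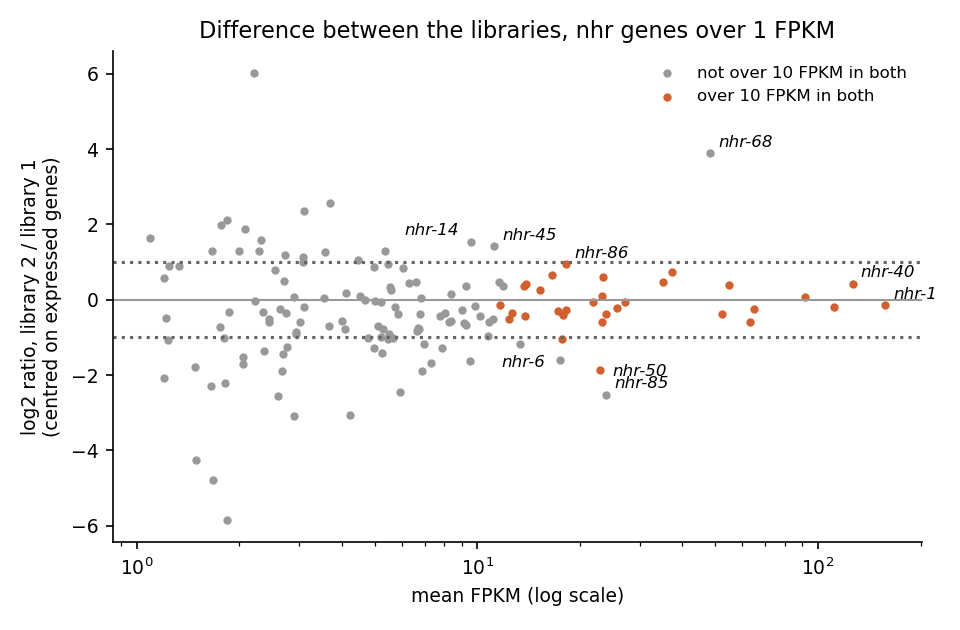
Log2 ratio of library 2 to library 1 (y axis, with the median ratio over expressed genes set to 0) against mean FPKM (x axis, log scale) for *nhr* genes with a mean over 1 FPKM and above 0 in both libraries, with dotted lines at 2-fold. The spread narrows as the level goes up, and *nhr-68*, with a mean of 48.1 FPKM, is the highest gene outside the dotted lines.

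The members were then counted by chromosome. Chromosome V held 170 of the 277 members (61.4%) but 7 of the 31 expressed ones. There 4.12% of members were expressed against 22.8% of its protein-coding genes, and with library 1 as the sole criterion 15 of its members were over 10 FPKM. On the other chromosomes 24 of 107 members (22.4%) were expressed against 37.9% of protein-coding genes. The expressed members of chromosome V were *nhr-114*, *nhr-50*, *nhr-47*, *nhr-86*, *nhr-228*, *nhr-134* and *nhr-101*, and the highest of them, *nhr-114*, had rank 10 in the family. Chromosome IV held 11 expressed of 34 members (32.4%), close to its 35.1% of protein-coding genes, and chromosome X held 7 of 25 (28%) against 33.3%. Chromosome II held 4 of 16 (25%) against 32.9%. Chromosome III held *nhr-20* alone of 8 (12.5%) against 46.8%, and chromosome I held *nhr-49* alone of 24 (4.17%) against 43.1%. The share of members was thus as low on chromosome I as on chromosome V, and lower than the share of protein-coding genes on all 6 chromosomes.

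**Figure D5:**
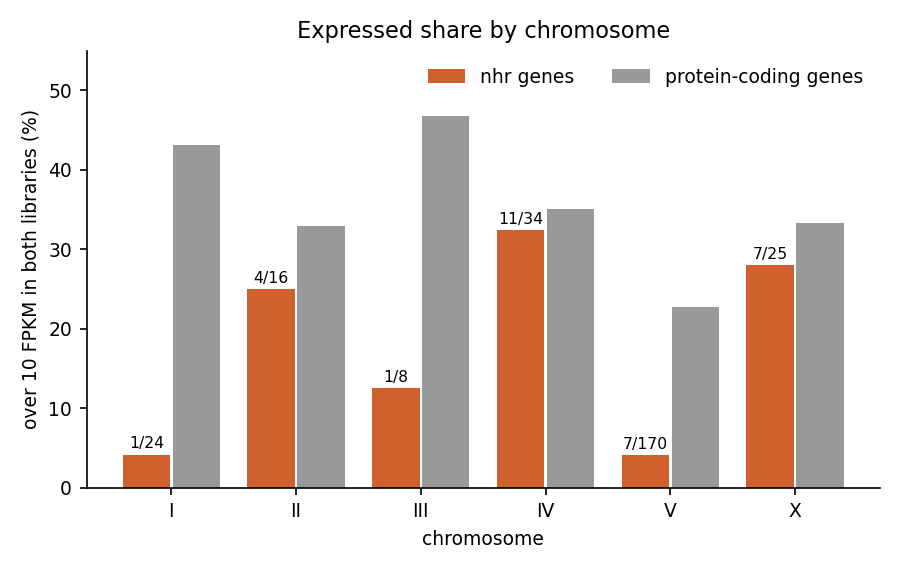
Share of genes over 10 FPKM in both libraries (y axis, %) on each chromosome (x axis), for *nhr* genes (orange, with the number expressed over the number of members) and for annotated protein-coding genes (gray). Chromosome IV has the highest share of *nhr* genes at 11 of 34, and chromosome V has 7 of 170.

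Members with and without a close neighbor were counted apart. A member was called clustered where another *nhr* gene started within 10 kb in the deposited loci. Of the 160 clustered members 8 (5%) were expressed, with a median of 1.29 FPKM, and of the 117 others 23 (19.7%), with a median of 2.60 FPKM. With library 1 as the sole criterion 16 clustered members were over 10 FPKM. Clustering and chromosome V go together, since 122 of the 160 lie there. Within chromosome V the shares were 4 of 122 (3.28%) and 3 of 48 (6.25%), and on the other chromosomes 4 of 38 (10.5%) and 20 of 69 (29%). No test of these differences was made, as neighboring genes are not independent. How reads shared by similar copies were assigned was not tested either. *nhr-73* and *nhr-245*, both clustered, were listed with the same values, 0.969 FPKM in library 1 and 1.02 FPKM in library 2. There were 19 runs of 3 or more clustered members. The largest held 12 members on chromosome V, from *nhr-123* to *nhr-131*, whose starts span 43181 bp, none of them expressed, with means between 0.833 and 7.00 FPKM. A run of 9 members held *nhr-134* (15.4 and 12.3 FPKM), together with *nhr-96* and *nhr-133* (13.8 and 7.65 FPKM). In another run of 9 members, from *nhr-185* to *nhr-124*, no mean was over 1.68 FPKM.

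Close neighbors were alike in some pairs and unlike in others. *nhr-129* and *nhr-168*, 218 bp apart, were nearly equal, with 10.6 and 3.12 FPKM for *nhr-129* and 10.96 and 3.70 FPKM for *nhr-168*. *nhr-101* and *nhr-68* lie 1137 bp apart, and *nhr-101* was within 1.5-fold between the libraries while *nhr-68* was not. *nhr-49* lies 5265 bp from *nhr-69*, which was over 10 FPKM in 1 library only. *nhr-50* and *nhr-63* lie 2971 bp apart, and both were higher in library 1. *nhr-138* and *nhr-100*, 296 bp apart, were both expressed. The latter pair lies in a stretch of 214646 bp on chromosome IV, from *nhr-34* to *nhr-4*, with 6 members of which 5 were expressed (*nhr-34*, *nhr-138*, *nhr-100*, *nhr-97* and *nhr-4*) and *nhr-38* was listed at 0 in both libraries. This stretch was chosen after its values were seen.

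The gene models of the expressed members were set beside those of the protein-coding members not expressed. Their median protein was 450 amino acids against 387, the median number of exons was 9 against 7, and the median gene span was 5745 bp against 2185 bp. Several annotated transcripts were listed for 22 of 31 expressed members (71%) and for 84 of the others (35.7%). The same direction held for gene span and transcripts over all protein-coding genes, with spans of 2372 bp and 1948.5 bp and shares with several transcripts of 44% and 23.2%. For the protein it did not, since the medians were 329 and 332.5 amino acids. FPKM divides by transcript length, and the number of annotated transcripts also depends on how well a gene has been studied.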

How the data were processed

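The authors sorted GFP-positive neurons, prepared TruSeq libraries, sequenced single-end reads on a HiSeq4000, mapped them with TopHat in Galaxy and computed FPKM with Cufflinks. The submitters' processing notes name the build ce10, and program versions are not given in the sources used here. The deposited FPKM values of each gene and their lower 95% bounds were used. The 2 columns of upper bounds were not used. The libraries are numbered by the end of their names in the deposited tables, since these could be placed in the wild-type group but not matched to a replicate label. No counts were used, and with the depth on genes unknown no interval from depth is given.

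Both tables were joined on start site and locus, and for each symbol the row with the highest mean was kept (Python 3.11.15, pandas 2.3.3, numpy 2.4.6). In library 1, 11 names that had turned into dates were taken from library 2, and none was a member. Expressed means FPKM over 10 in both libraries, the limit of the study's methods. The median ratio over expressed genes was taken out of ratios between libraries. The code of these steps was tested on simulated data with levels and ratios set well away from the limits. That test does not bear on calls near 10 FPKM or near 2-fold. Biotypes, exons, proteins and WBcel235 coordinates are from Ensembl release 115, which matched 95.5% of symbols. Neighbors were measured in the deposited loci.

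Named members are those on lists of studied receptors, the 20 highest, the 5 with the largest ratios in each direction and those nearest the limit. The members and lists were chosen with earlier results of these data known. Alternatives were limits of 1, 5 and 20 FPKM, the mean, the lower bound, TPM, upper-quartile scaling, summed rows, pseudocounts, other neighbor distances and each library alone. No test was made, as there is 1 condition with 2 libraries. A planned grouping by DNA-binding sequence was not run because no protein sequences were used here.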

Additional observations from a re-analysis of the deposited data

How the results depend on the processing

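The number of expressed members moved with the limit, at 123 for 1 FPKM, 62 for 5 FPKM and 15 for 20 FPKM, and was 17 when each library was scaled to the same sum (TPM), which lowers every value and so acts as a higher limit. At 1 FPKM the share was 44.4% of members against 55.1% of protein-coding genes, a narrower gap than at 10 FPKM. The number of expressed members was 42 by the mean, 29 by the lower bound, 32 with upper-quartile scaling, 31 with summed rows and between 37 and 44 with either library as the sole criterion. The median member level of 1.66 FPKM was 0.935 in TPM, 2.70 over members above 0 in at least 1 library, and between 1.16 and 1.40 with either library as the sole criterion. The number of members past 2-fold between libraries was 1 with a pseudocount of 1 and 35 with a limit of 1 FPKM, 25 of them higher in library 1, and 7 with a mean over 10 FPKM. The share of all genes past 2-fold at the limit of 1 FPKM was not computed. At 1 FPKM, 66 members of chromosome V (38.8%, against 53.3% elsewhere) and 63 clustered members (39.4%, against 51.3% of the others) were expressed. The shares of protein-coding genes by chromosome were not computed at this limit. With either library as the sole criterion the numbers over 10 FPKM were between 9 and 15 for chromosome V and between 9 and 16 for clustered members, with the highest value in library 1 each time. Pearson's r of 0.839 was 0.741 with a pseudocount of 0.1 and 0.875 over expressed members, and Spearman's rho was 0.796. Of 47 named members, 0 moved by more than their SD with upper-quartile scaling, while 34 did in TPM, where the unit itself changes. These alternatives, the mean over 10 FPKM for 2-fold differences and the split of clustered members by chromosome were chosen after seeing the data. The 4 alternatives on DNA-binding sequence were not run. No paired analysis was possible because there is 1 condition and no test. The 2 libraries, the unknown depth and the zeros of library 1 limit what can be read from members under 10 FPKM.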
